A study of Homo sapiens with 8 samples.

Results

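The genes described here are 46 genes of DNA replication and deoxynucleotide synthesis, among the 54261 genes of the deposited count table. They were picked by symbol from a list of replication genes, drawn up with earlier results of these data known, and all 46 symbols were found. They fall into 7 roles: 12 genes of origin licensing, 6 of helicase activation, 9 of the DNA polymerases, 6 of the sliding clamp and its loader, 5 of single-stranded DNA binding and Okazaki fragment maturation, 5 of nucleotide synthesis and 3 of the entry into S phase. Total RNA freed of ribosomal RNA was sequenced as 8 libraries, 1 for each line and treatment, all at passage 5 in DMEM with serum. NCM460 and HIEC6 are labelled as lines of normal human intestinal epithelium and were untreated. DLD1, HCT116 and HCT8 are colorectal cancer (CRC) lines, each sequenced untreated and under hypoxia. The oxygen level and the hours of hypoxia are not given in the sources used here. The replicates of the CRC groups are therefore 3 different cell lines, and p-values rest on the spread between lines. Where the line enters the model as a block, that spread is the one of the hypoxia difference and not of the levels.

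Before S phase, the origin recognition complex (ORC), CDC6 and CDT1 load the MCM2 to MCM7 ring onto replication origins, and geminin (GMNN) blocks CDT1 once S phase has begun. CDC45 and the GINS complex turn the ring into the active helicase, DNA polymerases alpha, epsilon and delta copy the strands, and PCNA is the sliding clamp that tethers them. Ribonucleotide reductase (RRM1, RRM2), thymidylate synthase (TYMS) and thymidine kinase (TK1) supply the deoxynucleotides. Much of this machinery is transcribed at the G1/S boundary under E2F factors, whose release from the retinoblastoma protein is promoted by cyclin E (CCNE1, CCNE2).

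Because these genes share regulators, their promoters were read first. RefSeq promoter windows (GRCh38.p14, 250 bases before to 50 after the start) were matched for 39 of the 46 genes. The E2F letters searched were TTTCCCGC, TTTCGCGC, TTTGCCGC and TTTGGCGC on both strands, where matches on opposite strands can overlap. They were found in 20 of the 39 genes (51.3%), against 3.99% of 27305 genes with a window of this length and 6.09% of the 12265 such genes that passed the count filter in the CRC lines. The 110 bases upstream of the start are printed for 1 gene of each of 6 roles, 5′ to 3′ on the gene's own strand, with the E2F letters in capitals, since they show how near to the start the letters lie.
MCM6 (helicase ring, chr2:136597196-136634013 in GRCh37, printed bases chr2:135876444-135876553 in GRCh38.p14, minus strand): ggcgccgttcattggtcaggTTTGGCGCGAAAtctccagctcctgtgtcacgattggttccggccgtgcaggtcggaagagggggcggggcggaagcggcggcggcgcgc
GINS2 (helicase activation, printed bases chr16:85688955-85689064, minus strand): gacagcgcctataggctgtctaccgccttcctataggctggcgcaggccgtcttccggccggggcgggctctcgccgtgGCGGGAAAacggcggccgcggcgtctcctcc
POLA2 (polymerase alpha, printed bases chr11:65261852-65261961, plus strand): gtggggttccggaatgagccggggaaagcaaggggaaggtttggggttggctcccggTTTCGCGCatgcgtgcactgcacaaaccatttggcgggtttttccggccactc
RFC3 (clamp loader, printed bases chr13:33818039-33818148, plus strand): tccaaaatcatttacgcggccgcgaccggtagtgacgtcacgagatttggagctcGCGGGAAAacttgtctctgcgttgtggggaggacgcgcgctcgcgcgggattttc
TYMS (thymidylate synthase, printed bases chr18:657543-657652, plus strand): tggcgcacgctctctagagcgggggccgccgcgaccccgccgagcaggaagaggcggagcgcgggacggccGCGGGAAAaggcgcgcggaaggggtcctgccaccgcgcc
E2F1 (transcription factor, printed bases chr20:33686386-33686495, minus strand): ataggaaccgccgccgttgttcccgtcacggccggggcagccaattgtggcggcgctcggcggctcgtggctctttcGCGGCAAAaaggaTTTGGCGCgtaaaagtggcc

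In MCM6 the capitals hold a pair of overlapping matches on opposite strands, at 90 and 86 bases before the start. The E2F1 stretch holds a match on each strand, the nearer of them 20 bases before the start. Across the 20 genes, 22 of 28 matches lay within 100 bases of the start. The CCAAT letters of NF-Y sites were found in 24 of the 39 genes (61.5%), against 39.7% of all genes with a window. TTTGAA, the letters of the CHR element of late cell-cycle promoters, was found in 2 genes, RRM1 and DUT (5.13%), against 18.2% of all genes. ACGTG, the core of the hypoxia response element, was found in 14 genes (35.9%), against 24.9% of all genes and 30.8% of the tested ones. A match describes letters in the window and not a bound site.

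**Figure D1:**
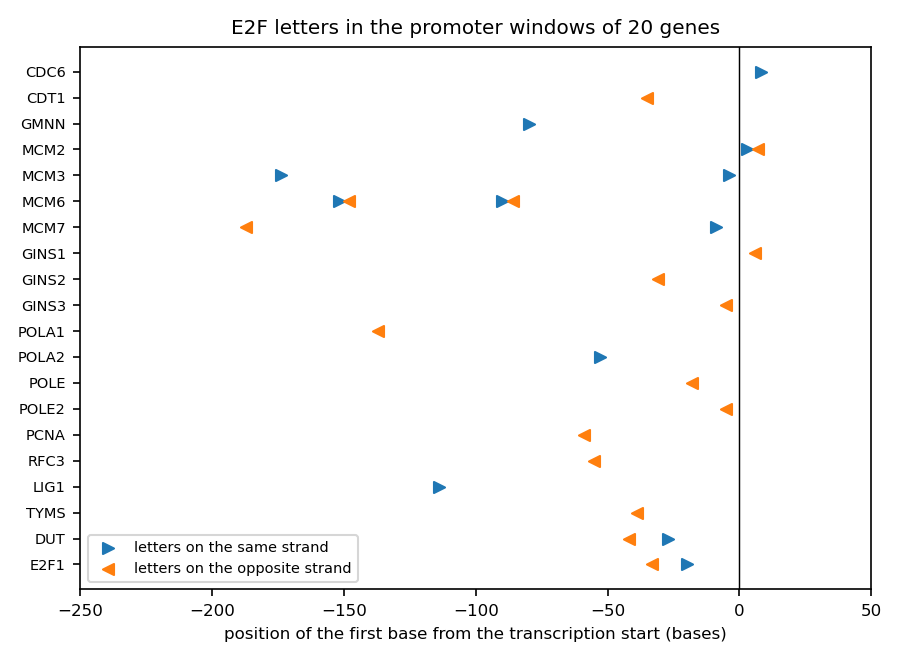
Positions of E2F letters in the promoter windows of the 20 genes that hold them. The x axis gives bases from the transcription start (0, vertical line), each triangle is a match, and its direction gives the strand. In E2F1 the matches lie 33 and 20 bases before the start.

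All 46 genes passed the filter of 10 counts in 2 libraries. The lowest count of any of them in any library was 39 (CCNE2, HCT116 under hypoxia), and mean levels over the 6 CRC libraries ran from 14.3 CPM (the count scaled to a column total of 1000000) for CCNE2 to 516 CPM for RRM2. Library totals lay between 45519306 and 57374239 counts, so that 3 counts, taken as the floor of detection, were 0.0523 to 0.0659 CPM. The 46 genes together took 0.683% of the counts in untreated DLD1 and 0.590% under hypoxia. In HCT116 their share was 0.497% untreated and 0.161% under hypoxia, and in HCT8 it was 0.566% and 0.395%. HIEC6, at 0.686%, had nearly the share of untreated DLD1, and the library labelled NCM460 had 0.392%.

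Some libraries stand apart from their labels. Across genes, the library labelled NCM460 correlated with HCT116 at r = 0.994 (log2(CPM + 1)), but with HIEC6, the other line labelled normal, at 0.924. HIEC6 held 3 counts of the intestinal transcription factor CDX2 and 10 of the epithelial adhesion gene EPCAM, while its level of VIM, a mesenchymal filament, was 1223.3 CPM. The simple-epithelium keratins KRT8 and KRT18 were at 4289.5 and 3725.0 CPM in HIEC6. The labels' extraction text names a brain region, and of 8 neural markers 3 to 6 were above the floor in each library, with summed levels of 21.9 CPM (HIEC6) to 300 CPM (HCT116 under hypoxia). The glial and myelin markers GFAP and MOG were at 0 to 5 counts, but MBP, another myelin gene, was at 10.8 CPM in HIEC6 and 68.9 to 118 CPM in the other libraries. The synaptic gene SYT1 was at 68.8 CPM in NCM460 and at 128 and 159 CPM in untreated and hypoxic HCT116, against 1.43 CPM or less elsewhere. The hypoxia library of HCT116 had 13.1% of its counts in its 10 largest genes, against 6.03% to 8.86% in the other 7 libraries. The 3 untreated CRC libraries carry 1 run label in common, and none of the 3 hypoxia libraries carries it, so run and treatment cannot be told apart. A list of 10 genes known to be induced by hypoxia had higher levels under hypoxia in every line in which they could be measured, with median log2 ratios of 2.03 in DLD1, 3.52 in HCT116 and 3.56 in HCT8.

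Replication genes were lower under hypoxia in all 3 CRC lines, and by very different amounts. The median log2 ratio of CPM (hypoxia over untreated) over the 46 genes was -0.26 in DLD1, -0.68 in HCT8 and -1.82 in HCT116, where it corresponds to a level 3.54-fold lower. Over all genes measured in each line the median was -0.01, 0.01 and -0.36. The HCT116 value therefore holds a shift of the whole library, and with TMM scaling over the 6 libraries the medians of the 46 genes were -0.23, -0.66 and -1.47. Relative to the median of all genes the replication genes stood at -0.26, -0.68 and -1.46. A scaling factor shifts all genes of a line alike, so these differences are the same under any scaling by construction. These are single pairs of libraries. The 95% exact binomial intervals given for the ratios cover counting error only, and they carry no test of hypoxia. In bulk RNA, fewer cells in S phase and less RNA of these genes per cell cannot be told apart.

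In DLD1, 43 of the 46 genes had a lower level under hypoxia and 3 were lower by 1.5-fold or more (6.52%, against 3.98% of the 9191 genes expressed at least as highly as the lowest of the 46). In HCT8, 44 genes were lower and 30 were past 1.5-fold (65.2%, against 15.7%). In HCT116 all 46 were lower and 45 were past 1.5-fold (97.8%, against 39.5%), the exception being RFC1. With TMM, 42 genes were past 1.5-fold in HCT116, against 23.0% of the 9191 genes. A lower level in every line was seen for 42 genes (91.3%, against 37.6%), and 39 genes followed the order HCT116 lowest, HCT8 next and DLD1 highest (against 37.8% of the expressed genes with a ratio in every line). HCT116 had the lowest ratio for 44 of the 46 genes, against 63.8% of those genes, and relative to the median of all genes in each line it was lowest for 41 (89.1%, against 38.4%). Only GINS3, MCM10 and RFC4 were past 1.5-fold in every line (6.52%, against 2.19% of the 9191 genes and 3.16% of all 21045 genes tested), and 3 genes were past it under each of the other scalings tried.

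**Figure D2:**
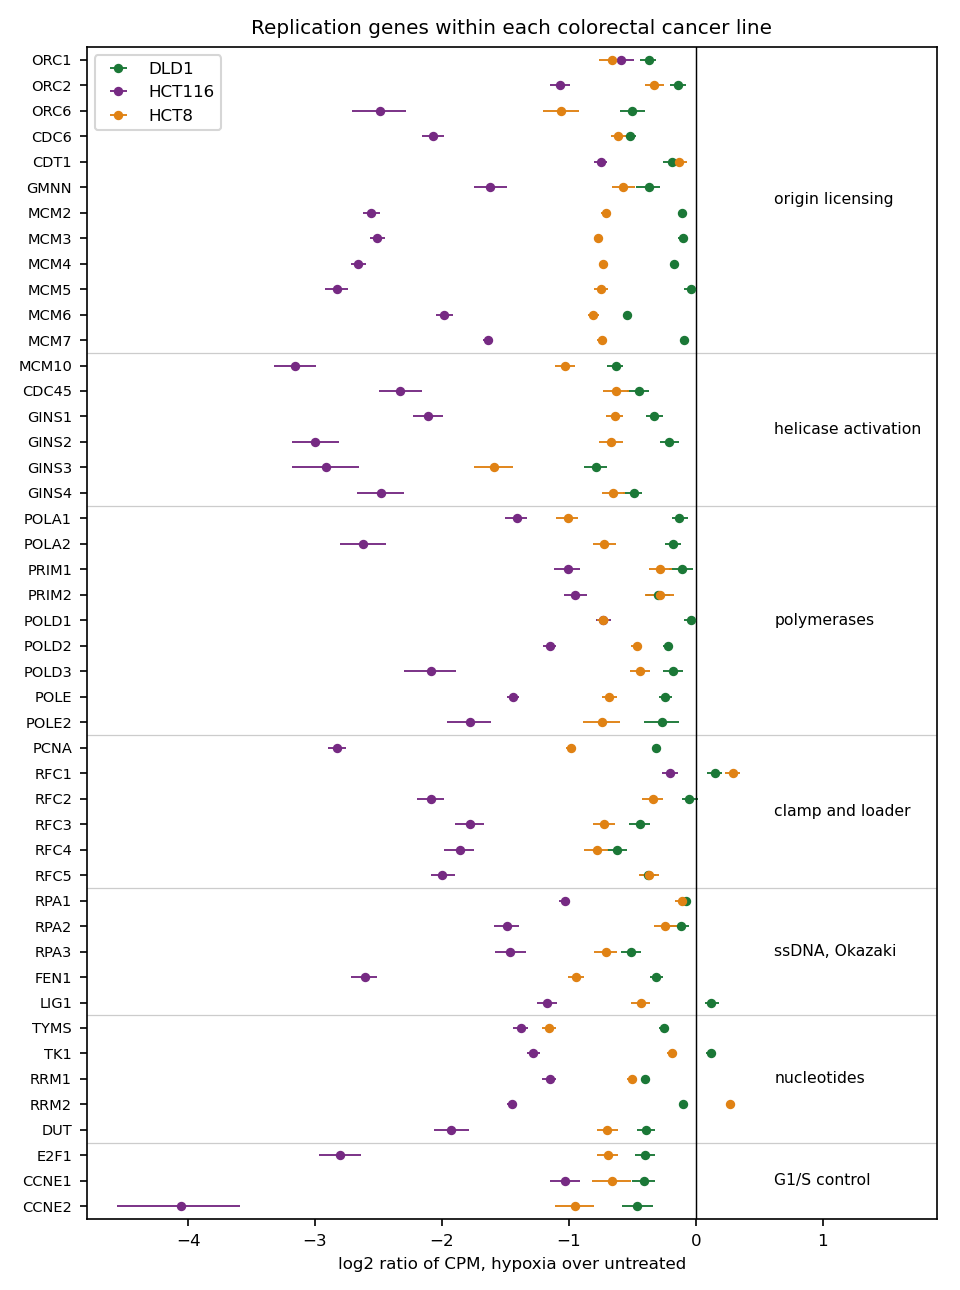
Log2 ratio of CPM, hypoxia over untreated (x axis), for the 46 genes grouped by role (y axis) in DLD1 (green), HCT116 (purple) and HCT8 (orange). Points are 1 library pair each and bars are 95% exact binomial intervals (counting error only). HCT116 has the lowest ratio for 44 of the 46 genes, as it has for 63.8% of the genes expressed at least as highly.

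The libraries differed less in mitosis genes. For 12 genes of mitosis, which act after S phase, the median log2 ratios of DLD1, HCT116 and HCT8 were -0.01, -0.42 and -0.26. In DLD1 and HCT116 these values lay within 0.1 of the median of all genes in the same line. With TMM the mitosis medians were 0.03, -0.07 and -0.25. The difference between the lists was not tested.

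**Figure D3:**
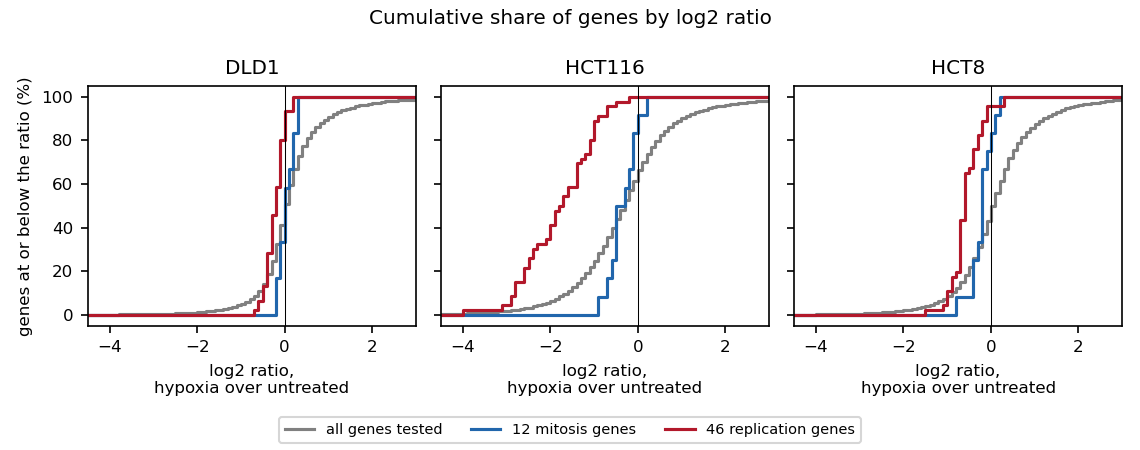
Cumulative share of genes (y axis, percent) at or below a log2 ratio of hypoxia over untreated (x axis) in each CRC line, for all genes tested (grey), 12 mitosis genes (blue) and the 46 replication genes (red). The red curve lies farthest left in HCT116, where its median was -1.82 and that of all genes -0.36.

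Hypoxia was tested over the 3 lines with edgeR's quasi-likelihood test on the counts, with TMM and Benjamini-Hochberg adjustment. Without the cell line in the model, 0 of the 46 genes and 0% of the 21045 genes tested passed the adjusted threshold of 0.05, and 606 genes (RFC4 among the 46) had an unadjusted p under 0.05. DESeq2 without the line called 55 genes and none of the 46. The median fitted log2 fold change of the 46 genes was -0.66, against 0.06 over all genes. With the line as a replicate block, which pairs each hypoxia library with its own untreated one, edgeR called 200 genes, 44 of them lower (0.209%). It again called 0 of the 46, whose adjusted p ran from 0.0751 (GINS3) to 0.613 (RRM2), while 33 of them had an unadjusted p under 0.05, as had 18.5% of all genes tested. DESeq2 with the same block, an analysis added after seeing the data, called 14 of the 46 lower (30.4%, against 3.38% of all genes) and none higher. Of the 9191 genes expressed at least as highly as the lowest of the 46, it called 587 lower. Calls among the 46 thus depended on the tool. The 14 were ORC6, CDC6, MCM6, MCM10, GINS3, GINS4, PCNA, RFC3, RFC4, RPA3, FEN1, TYMS, RRM1 and DUT.

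HCT116 weighed most on the size of the difference. The median over the 46 genes of the mean within-line log2 ratio was -0.92, and it was -0.46 without HCT116, -1.26 without DLD1 and -1.09 without HCT8. The fitted median was -0.38 without the hypoxia library of HCT116 and -1.10 without that of DLD1. In the fit with the block, 2 of the 46 genes, GINS3 and MCM10, passed with HCT116 left out (adjusted p = 0.0204 and 0.0327, edgeR), and GINS3 passed with DLD1 left out (adjusted p = 0.0373). Those fits also called many genes outside the 46, as counted in the last section. No result about the 46 genes as a set is drawn from these calls. The lower levels in DLD1 and HCT8 are seen without HCT116, at a smaller size. Summed levels of the 10 stromal markers also moved with hypoxia, from 11.7 to 94.2 CPM in DLD1, 37.0 to 166 CPM in HCT116 and 15.4 to 25.1 CPM in HCT8. All 10 were higher under hypoxia in DLD1 and in HCT116, and 5 of 10 in HCT8. The fibronectin gene FN1 took most of the hypoxia sums of these lines, at 5.47 and 55.8 CPM in DLD1 and 14.2 and 92.6 CPM in HCT116 (untreated and hypoxia), and COL1A1 went from 13.7 to 33.2 CPM in HCT116. COL1A2 went from 40 to 658 counts in DLD1 and from 49 to 724 in HCT116, but from 66 to 21 in HCT8. VIM went from 87 to 604, from 324 to 1142 and from 54 to 10 counts in the same lines. DCN, LUM, THY1 and PDGFRA were at 27 counts or fewer in all 8 libraries. The part of the stromal markers in the result was not tested.

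Origin licensing opened the sequence of roles with a median log2 ratio of -0.18 in DLD1, -2.03 in HCT116 and -0.72 in HCT8. The subunits of the MCM ring lay close together in HCT8 and far apart in HCT116. In HCT8 the ratios of MCM2 to MCM7 all lay between -0.81 (MCM6) and -0.71 (MCM2), and in HCT116 between -2.83 (MCM5) and -1.64 (MCM7). MCM2 was at 309, 226 and 266 CPM in untreated DLD1, HCT116 and HCT8, and at 287, 38.5 and 163 CPM under hypoxia. MCM3 was at 301, 283 and 331 CPM untreated and 280, 49.8 and 194 CPM under hypoxia, so that its groups did not overlap. The highest hypoxia value of MCM3, that of DLD1, lay just under the lowest untreated one.

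MCM4 was at 514, 292 and 399 CPM untreated and 456, 46.2 and 241 CPM under hypoxia. MCM5 was at 164, 137 and 150 CPM untreated and 159, 19.3 and 89.2 CPM under hypoxia. Both were nearly level in DLD1 and differed most in HCT116. MCM6 was at 289, 138 and 230 CPM untreated and 199, 34.9 and 131 CPM under hypoxia, and it was the ring subunit with the lowest ratio in DLD1 (-0.54). MCM7 was at 391, 407 and 299 CPM untreated and 368, 130 and 179 CPM under hypoxia. Per kilobase of transcript, the highest of the 6 subunits stood 4.49 times above the lowest in untreated HCT116 and 9.45 times above it under hypoxia, with MCM7 highest in both. That spread hardly moved in DLD1 (3.35 and 3.25) or HCT8 (2.80 and 2.81).

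The loading factors varied more. ORC6, the smallest ORC subunit (chr16:46723555-46732306, GRCh37, plus strand), was at 35.5, 21.6 and 27.2 CPM untreated and 25.1, 3.83 and 13 CPM under hypoxia. Its mean within-line log2 ratio was -1.35 ± 1.03 (SD, n = 3 lines), the fifth lowest of the 46, and DESeq2 with the block gave an adjusted p of 0.0156. CDC6, the ATPase that loads the ring, was at 171, 96.3 and 117 CPM untreated and 120, 22.9 and 76.3 CPM under hypoxia. CDT1 was among the genes that differed least, at 70.1, 145 and 106 CPM untreated and 61.5, 86.3 and 97.3 CPM under hypoxia. Geminin, its inhibitor, was at 38.3, 35.5 and 53.7 CPM untreated and 29.5, 11.6 and 36.2 CPM under hypoxia. Per kilobase, the CDT1 level over the geminin level was 0.869, 1.94 and 0.937 in the untreated lines and 0.987, 3.53 and 1.28 under hypoxia, higher in each line. This ratio was not tested.

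Helicase activation had the lowest median of the 7 roles in DLD1 (-0.47) and, after the S-phase entry genes, in HCT116 (-2.70), with -0.66 in HCT8. GINS3 (chr16:58328984-58440051, GRCh37, plus strand), a GINS subunit, was at 45.3, 18.0 and 30.9 CPM untreated and 26.2, 2.40 and 10.2 CPM under hypoxia. Each line had the lower value under hypoxia, with log2 ratios of -0.79 (-0.88 to -0.70), -2.91 (-3.18 to -2.65) and -1.59 (-1.75 to -1.44). Its fitted log2 fold change with the block was -1.61 ± 0.33 (SE), with adjusted p = 0.0751 in edgeR and 0.000705 in DESeq2. Its exons share 558 bases with a transcript on the other strand, and the sources used here do not say whether counting used the strand. Such overlaps were also found for other genes, among them GINS4 (1145 bases), MCM2 (1113), POLA2 (543) and DUT (533).

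MCM10, the scaffold that helps to activate the helicase (chr10:13203558-13253110, GRCh37, plus strand), was at 86.6, 53.9 and 82.2 CPM untreated and 55.9, 6.05 and 40.2 CPM under hypoxia. It overlaps no exon on the other strand. With the block its log2 fold change was -1.44 ± 0.39 (SE), with adjusted p = 0.121 in edgeR and 0.0112 in DESeq2. In HCT116 the level was 8.92-fold lower under hypoxia. CDC45, GINS1, GINS2 and GINS4 had log2 ratios of -0.49 to -0.21 in DLD1, -3.00 to -2.11 in HCT116 and -0.67 to -0.63 in HCT8.

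The polymerase subunits had median log2 ratios of -1.41 in HCT116, -0.18 in DLD1 and -0.68 in HCT8. Within this role POLA2, the regulatory subunit of polymerase alpha, had the lowest ratio in HCT116 (-2.62) and POLD1, the catalytic subunit of polymerase delta, the highest (-0.73). POLA2 was at 89.7, 34.0 and 60.3 CPM untreated and 79.3, 5.54 and 36.6 CPM under hypoxia. The partner subunits of a polymerase thus differed: POLA1, the catalytic subunit of polymerase alpha, had -1.41 in HCT116. PRIM1, POLE and POLE2 had hypoxia values that all lay below the untreated ones. Groups without overlap in that direction were found for 8 of the 46 genes (17.4%, against 6.44% of all genes tested), the others being MCM3, RFC3, RFC4, RPA3 and E2F1. Of the 9191 genes expressed at least as highly as the lowest of the 46, 840 had such groups.

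Among the clamp and its loader, PCNA (chr20:5095599-5107272, GRCh37, minus strand) was at 453, 260 and 350 CPM untreated and 366, 36.6 and 177 CPM under hypoxia. Its log2 ratios were -0.31 in DLD1, -2.83 in HCT116 and -0.98 in HCT8, and its adjusted p with the block was 0.152 in edgeR and 0.0297 in DESeq2. RFC4, a small subunit of the clamp loader (chr3:186507669-186524847, GRCh37, minus strand), had nearly the same untreated level in every line, 55.1, 55.0 and 53.9 CPM, and was at 35.9, 15.1 and 31.3 CPM under hypoxia. The fitted log2 fold change of RFC4 with the block was -0.95 ± 0.23 (SE), with adjusted p = 0.0969 in edgeR and 0.00718 in DESeq2.

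RFC1, the large subunit of the same loader (chr4:39289076-39367995, GRCh37, minus strand), went apart from the other subunits. It was at 81.5, 79.0 and 86.6 CPM untreated and 90.5, 68.5 and 106 CPM under hypoxia, and its mean log2 ratio was 0.08 ± 0.26 (SD, n = 3 lines), the highest of the 46. Its ratio in HCT116 was -0.20 by column totals and 0.15 with TMM. RFC2, RFC3 and RFC5 had log2 ratios of -2.09 to -1.78 in HCT116 and of -0.72 to -0.34 in HCT8.

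Of the genes that bind single strands and join Okazaki fragments, FEN1, the flap endonuclease, had the lowest ratios in HCT116 (-2.61) and HCT8 (-0.94). It was at 134, 92.4 and 121 CPM untreated and 108, 15.1 and 62.7 CPM under hypoxia. RPA1, the large subunit of replication protein A, was among the 5 genes that differed least, at 189, 218 and 208 CPM untreated and 180, 106 and 192 CPM under hypoxia. LIG1, the DNA ligase of replication, had log2 ratios of 0.12 in DLD1, -1.17 in HCT116 and -0.43 in HCT8.

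**Figure D4:**
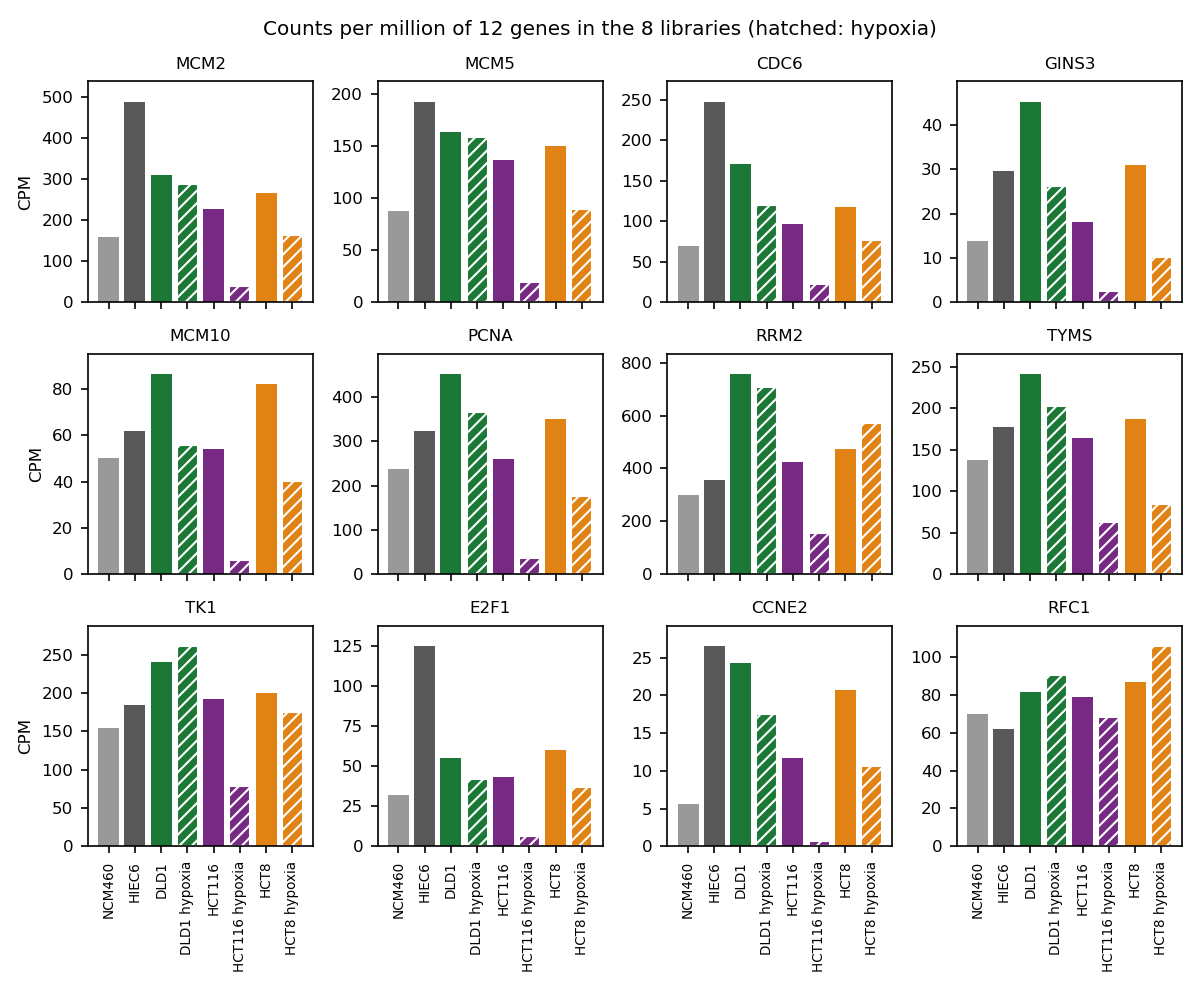
Level in CPM (y axis, from 0, a scale of its own in each panel) of 12 genes in each of the 8 libraries (x axis), with hypoxia libraries hatched and no error bars because each bar is 1 library. The hypoxia library of HCT116 is the lowest bar in 11 panels, and in the RFC1 panel that of HIEC6 is.

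The nucleotide synthesis genes had a median of -0.25 in DLD1, -1.38 in HCT116 and -0.50 in HCT8. TYMS (chr18:657653-673578, GRCh37, plus strand) was at 242, 164 and 187 CPM untreated and 203, 63.0 and 84.1 CPM under hypoxia, with log2 ratios of -0.25, -1.38 and -1.16. It was the gene of this role with the lowest ratio in HCT8. Its exons share 967 bases with ENOSF1 on the other strand. RRM2, the regulated small subunit of ribonucleotide reductase (chr2:10260825-10351851, GRCh37, plus strand), was at 759, 425 and 475 CPM untreated and 709, 155 and 574 CPM under hypoxia. The value in HCT8 was thus higher under hypoxia, with a log2 ratio of 0.27 (0.25 to 0.30), while RRM1, the large subunit, had -0.50 there.

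TK1, the salvage enzyme for thymidine, was at 241, 192 and 200 CPM untreated and 262, 79.3 and 175 CPM under hypoxia. Its level was slightly higher under hypoxia in DLD1 and lower in the other lines. DUT, which removes dUTP, was at 70.4, 40.2 and 63.2 CPM untreated and 53.8, 10.6 and 39.0 CPM under hypoxia.

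At the entry into S phase, E2F1 (chr20:32263283-32274191, GRCh37, minus strand) was at 55.3, 43.0 and 59.7 CPM untreated and 42.0, 6.17 and 37.0 CPM under hypoxia. The hypoxia values all lay below the untreated ones, the nearest being hypoxia in DLD1 and untreated HCT116. CCNE2, the second cyclin E gene (ENSG00000175305, minus strand), was at 24.3, 11.7 and 20.7 CPM untreated and 17.6, 0.704 and 10.7 CPM under hypoxia. Its HCT116 ratio of -4.06 (-4.56 to -3.59), or 16.7-fold lower, was the lowest of all 46 genes in any line. The mean of CCNE2 over the lines was -1.83 ± 1.95 (SD, n = 3 lines), so that the mean was smaller than the spread between lines. CCNE2 shares 1629 exon bases with INTS8 on the other strand. CCNE1 was at 39.9, 30.3 and 18.7 CPM untreated and 30.1, 14.8 and 11.8 CPM under hypoxia, and the lowest untreated value lay within the hypoxia range.

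For 28 of the 46 genes the mean within-line log2 ratio was larger in size than its SD over the lines. The share of all genes that meet this was not counted, so the number does not set the 46 apart. The genes with E2F letters in their promoter window had median log2 ratios of -0.26 in DLD1, -1.95 in HCT116 and -0.71 in HCT8. Those without had -0.30, -1.15 and -0.46. These medians describe 20 and 19 genes and were not tested, and both groups of genes were lower in every line.

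Genes of the same processes outside the 46 gave medians in the same direction in each line. The lists were 13 other genes of licensing and origin firing (-0.19 in DLD1, -1.36 in HCT116 and -0.41 in HCT8), 18 of the fork and chromatin assembly (-0.17, -1.43 and -0.61), 26 of nucleotide synthesis (-0.27, -1.36 and -0.81) and 26 of G1/S control (-0.09, -0.99 and -0.46). In edgeR without the block, none of these genes passed, and 1, 0, 4 and 2 of them had an unadjusted p under 0.05. With the block, 1 gene passed, MTHFD2, the mitochondrial folate enzyme that feeds purine synthesis (adjusted p = 0.0177), with log2 ratios of -1.51, -1.58 and -1.40. These sizes were nearly equal in the 3 lines. DESeq2 with the block called 1, 6, 10 and 5 genes of these lists lower, against 3.38% of all genes tested, and none higher. Over all genes the median log2 ratios were -0.01 in DLD1, -0.36 in HCT116 and 0.01 in HCT8.

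The lowest mean ratio of each list was that of ORC5 (-0.56, -1.91 and -1.23), the clamp loader subunit DSCC1 (-0.70, -2.12 and -1.49), the CTP synthase CTPS1 (-0.55, -2.57 and -1.63) and the CDK phosphatase CDC25A (-0.45, -2.87 and -1.27). Only genes with a mean of at least 1 CPM were ranked. The highest was that of DBF4 (-0.17, -0.16 and -0.22), POLD4 (0.29, 0.10 and 0.69), RRM2B (0.20, -0.18 and 0.38) and the CDK inhibitor CDKN2B (1.22, -0.08 and 1.47). Under that level, the CDK inhibitor CDKN1C had ratios of 0.99, 0.83 and 1.29. Its mean log2 ratio of 1.04 was above that of CDKN2B, 0.87. POLD4 is the small subunit of polymerase delta and RRM2B an alternative small subunit of ribonucleotide reductase.

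HIEC6, labelled a normal line, was compared with the untreated CRC lines. Its own markers also stand apart from the label, with EPCAM at 0.176 CPM and VIM at 1223.3 CPM. The comparison therefore describes this line and not normal epithelium. Its replication genes lay in or above the range of the cancer lines more often than below it. HIEC6 had the highest level of the 4 libraries for 21 of the 46 genes (45.7%, against 22.7% of the 18994 genes tested) and the lowest for 8 (17.4%, against 43.1%). The median fitted log2 fold change (HIEC6 over CRC, TMM) was 0.44, against -0.20 over all genes. Over the 9191 genes expressed at least as highly in the CRC libraries as the lowest of the 46, the median was 0.01. Of these genes, 2440 were highest and 3847 lowest in HIEC6. In edgeR's quasi-likelihood test 0 of the 46 genes and 0% of all genes passed the adjusted threshold. An unadjusted p under 0.05 was found for 9 of the 46 and 2994 of the 18994 genes tested. It was also found for 1708 of the 9183 genes tested that were expressed at least as highly. The share of the 46 lay close to the share of those genes. DESeq2 called 12 of the 46 higher in HIEC6 (26.1%, against 8.99% of all genes) and none lower. Of the genes expressed at least as highly, it called 1299 higher. HIEC6 is 1 library, so it was assumed to vary like the CRC lines.

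POLA1 (chrX:24711990-25015103, GRCh37, plus strand) had the largest difference. It was at 196 CPM in HIEC6 and at 77.8, 77.3 and 71.0 CPM in DLD1, HCT116 and HCT8, a log2 fold change of 1.64 ± 0.28 (SE) with adjusted p = 0.190 in edgeR and 2.8e-09 in DESeq2. FEN1 was at 280 CPM in HIEC6, above the 92.4 to 134 CPM of the CRC lines. E2F1 was at 125 CPM, against 43.0 to 59.7 CPM. CDC6 was at 248 CPM, against 96.3 to 171 CPM, and MCM2 at 488 CPM, against 226 to 309 CPM. Each of these 5 genes was higher in HIEC6 than in all 3 CRC lines, and their adjusted p values in edgeR lay between 0.190 and 0.297.

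The genes at the other end were GINS4, RRM2, ORC2, PRIM1 and POLD3. GINS4 was at 27.3 CPM in HIEC6 and between 29.1 and 69.8 CPM in the CRC lines, and RRM2 at 356 CPM against 759, 425 and 475 CPM. ORC2 was at 49.9 CPM against 73.1 to 81.3 CPM, and PRIM1 at 28.6 CPM against 35.1 to 41.6 CPM. POLD3, at 31.5 CPM, lay inside the range of the CRC lines, 18.3 to 58.7 CPM. Fitted log2 fold changes of these genes ran from -0.59 (GINS4) to -0.16 (POLD3). TYMS and TK1 had log2 fold changes of 0.11 and 0.06, each smaller than its SE. HIEC6 also had the lowest CDT1 level relative to geminin of all 8 libraries, 0.628 per kilobase.

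**Figure D5:**
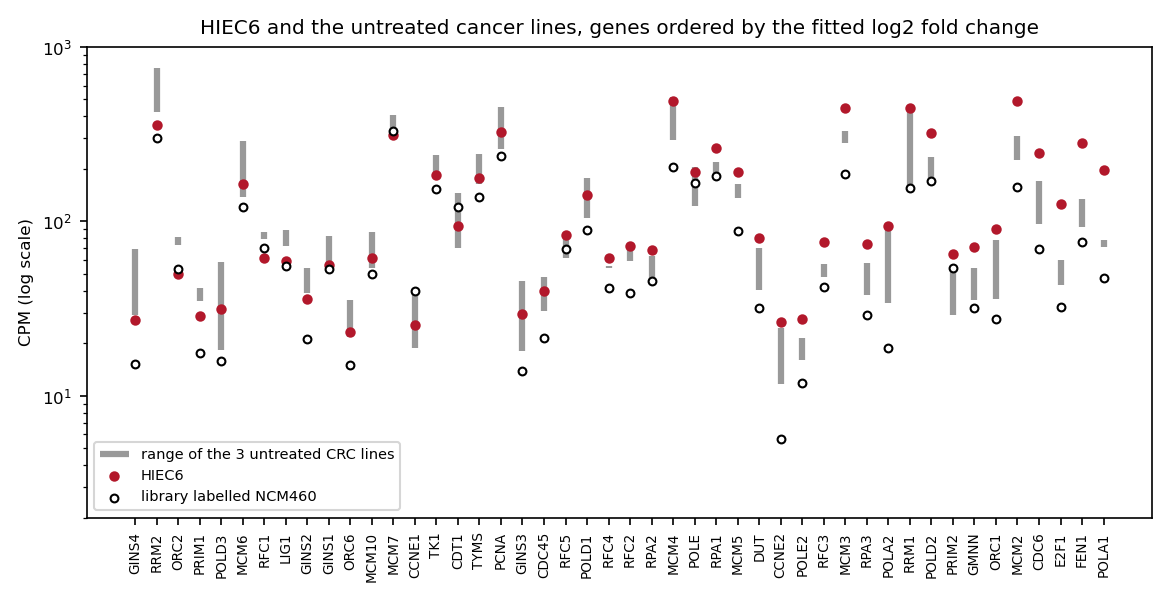
Level in CPM (y axis, log scale) of the 46 genes (x axis, ordered by the fitted log2 fold change of HIEC6 over the CRC lines) in HIEC6 (red), in the library labelled NCM460 (open circles) and as the range of the 3 untreated CRC lines (grey bars). HIEC6 lies above the bar for 21 genes and below it for 8.

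The size of the HIEC6 difference moved with the scaling. The median of the 46 genes was 0.18 with column totals alone and 0.28 with upper-quartile scaling, and it was 0.12 when NCM460 joined HIEC6 as the normal group. The library labelled NCM460 was close to HCT116 across genes, and it had lower levels than HCT116 for 44 of the 46 genes, with a median log2 ratio of -0.38 against -0.02 over all genes. POLA1 was at 47.5 CPM in that library and 196 CPM in HIEC6, and FEN1 at 76.2 and 280 CPM, below and above all 3 untreated CRC lines. Since the library goes against its label, no difference between normal and cancer lines is drawn from it.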

How the data were processed

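The authors aligned rRNA-depleted total RNA reads and deposited raw counts per gene in 1 table of 54261 genes and 8 libraries. The study's methods name GRCh37, and the submitters' processing notes name GRCh38 and HISAT2 2.0.4, so the build behind the counts is uncertain. The counter, the strand setting and the treatment of multimapping reads are not given in the sources used here. All columns were used. Gene positions are from GENCODE 44 lifted to GRCh37 and promoters from RefSeq (GRCh38.p14).

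Counts were tested with edgeR 4.0.16 in R 4.3.3 (glmQLFit, glmQLFTest, TMM, at least 10 counts in 2 libraries of the fit, Benjamini-Hochberg over all genes, threshold 0.05), hypoxia over 6 CRC libraries and HIEC6 against 3 untreated CRC libraries. The standard error is the log2 fold change over the root of F. Within-line ratios used column totals, with 95% Clopper-Pearson intervals. Such intervals and floors cover counting error only. In the CRC groups a replicate number stands for 1 cell line and thereby pairs the libraries. Within lines, deviations from the group mean correlated at 0.82 to 0.857, and between lines at -0.611 to -0.0599. DESeq2 1.42.0, limma-trend (limma 3.58.1), other scalings and filters, the block, left-out libraries and other HIEC6 contrasts were alternatives. DESeq2 with the block and the block with a line left out were added after seeing the data. Code was tested on simulated data.

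The members and lists were chosen with earlier results of these data known. Values by library are given for genes past 1.5-fold in all 3 lines, the 5 highest and 5 lowest in each comparison and a set of core genes (MCM2 to MCM7, PCNA, E2F1, CCNE1, CCNE2, TYMS, RRM2, TK1, CDT1, GMNN). They are not given for every gene that DESeq2 called, such as GINS4, RFC3, RPA3 and RRM1. Of the other lists, genes that passed edgeR and the lowest and highest with a mean of at least 1 CPM are named. POLA2, FEN1, DUT, LIG1 and the promoters printed were chosen after their values were seen.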

Additional observations from a re-analysis of the deposited data

Results flagged for a closer look

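For 4 of the 46 genes, at least 1 CRC line had a higher level under hypoxia and another a lower one. Each line is a single pair of libraries, so the difference between lines was not tested, and groups of 3 libraries or fewer were too small for a check of outlying samples.

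RRM2 had a log2 ratio of 0.27 in HCT8 and -1.45 in HCT116, a difference of 1.73 before rounding. TK1 had 0.12 in DLD1 and -1.28 in HCT116, a difference of 1.40. LIG1 had 0.12 in DLD1 and -1.17 in HCT116, a difference of 1.29. RFC1 had 0.29 in HCT8 and -0.20 in HCT116, a difference of 0.50, and with TMM its HCT116 ratio was 0.15, so that its lines then shared 1 direction. HCT116 is the line whose hypoxia library had the most counts in its 10 largest genes (13.1%).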

How the results depend on the processing

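The number of genes called under hypoxia (0 in edgeR without the block) was 55 with DESeq2, 200 with the replicate block and 1666 with DESeq2 and the block. With the block and a line left out it was 292 without DLD1, 738 without HCT116 and 6 without HCT8. Of the 46 genes, 14 were called by DESeq2 with the block, and 1 and 2 by edgeR with the block without DLD1 and HCT116. It remained 0 with each of the 6 libraries left out in turn and no block, where the median of the 46 ranged from -1.10 to -0.38. RRM2 turned to 0.09 with the block and HCT116 left out. With single libraries left out, RRM2 ranged from -0.58 to 0.18, CDT1 from -0.50 to 0.10 and TK1 from -0.64 to 0.02. In HIEC6 the count of genes (0) was 42 with no filter, 85 with limma-trend, 146 with all 8 libraries in 1 fit and 4206 with DESeq2, which called 12 of the 46. The median of the 46 in HIEC6 (0.44) was 0.28 with upper-quartile scaling, 0.18 with column totals, 0.12 with both normal lines and 1.11 against the hypoxia CRC libraries, where GINS4 (0.17), ORC2 (0.02), POLD3 (0.29) and PRIM1 (0.16) turned positive. POLD3 ranged from -0.50 to 0.07 with a CRC library left out. The cause was not tested. Of the single-gene values, 346 of 360 alternatives under hypoxia and 109 of 120 in HIEC6 kept their direction and side of the threshold. These values cover 20 and 10 genes named for the comparisons. The main fits called none of them, so keeping the side of the threshold means only that they stayed uncalled. Depth limited little, since the lowest count of the 46 genes was 39. The limits were 1 library per line and treatment, 3 lines whose spread had a coefficient of variation of 0.876 without the block and 0.295 with it, and run labels that coincide with treatment.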
